A study of Mus musculus with 28 samples.

Results

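*Nrn1*, *Plaur* and *Plau* were followed through 8 T cell cultures as 3 of the 24089 genes of an RNA-seq table, with the open chromatin around them. *Nrn1* and *Plaur* were selected on their RPKM in WT cells, which was lower under TGF-β + IL-4 than under medium, and *Plau* because its product is the ligand of the *Plaur* product. The WT TGF-β + IL-4 and WT control values are therefore given as a description without a test. RNA-seq gave 24 libraries, 3 for each of 8 groups. Naïve CD4+ T cells that express CD62L were purified with beads from spleen and lymph nodes and stimulated through CD3 and CD28, in medium alone (control), with TGF-β (2 ng/ml), with IL-4 (10 ng/ml) or with both cytokines. All mice carried *Tgfbr1* f/f and Ert2-cre, an inducible Cre recombinase, on the C57BL/6 background, were of either sex and were 8 to 10 weeks old. Mice treated with tamoxifen, which activates the Cre, are called KO, and mice treated with oil are called WT, so that WT cells also held the floxed alleles and the Cre. The deletion was not restricted to T cells. KO and WT mice differed by tamoxifen against oil as well as by the deletion, and these cannot be told apart here. DNase-seq, which maps open chromatin, was done on control and TGF-β + IL-4 cells of both genotypes, 1 library each. The culture time of the RNA-seq cells is not given in the sources used here. Replicates are separate mice, numbered 1 to 3 within each genotype.

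Neuritin, the product of *Nrn1*, and the urokinase receptor uPAR, the product of *Plaur*, are both held in the outer cell membrane by a glycosylphosphatidylinositol (GPI) anchor, a lipid tail added to the finished protein chain. Neuritin is a small protein first known from neurons, where it promotes the growth of neurites, and it is also made by regulatory and anergic T cells. uPAR binds urokinase, a secreted serine protease encoded by *Plau*, and so brings the conversion of plasminogen to plasmin to the cell surface. It also binds the matrix protein vitronectin and acts together with integrins. TGF-β signals through its type I receptor, the product of *Tgfbr1*, to SMAD proteins, and IL-4 signals mainly through STAT6.

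The culture of a column depended on how the table was read. The columns were read here in file order, in which the libraries run by their number, with 12 WT columns followed by 12 KO columns and each block of 4 being 1 mouse in the sequence control, TGF-β, IL-4, both cytokines. The headings of the table name the libraries otherwise, and both readings give the same culture to only 8 of the 24 columns. Read counts that the study supplies for 8 WT libraries, those of mice 1 and 3, were compared with each column by which genes were at 0. All 8 matched the column at their place in file order, with at least 99.8% of genes agreeing, and only 2 of 8 matched the column that carries their heading. The other 4 WT columns (mouse 2) and all 12 KO columns had no read counts to compare, so that their culture rests on file order alone. Both readings put the same 12 columns in WT and in KO.

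**Figure D1:**
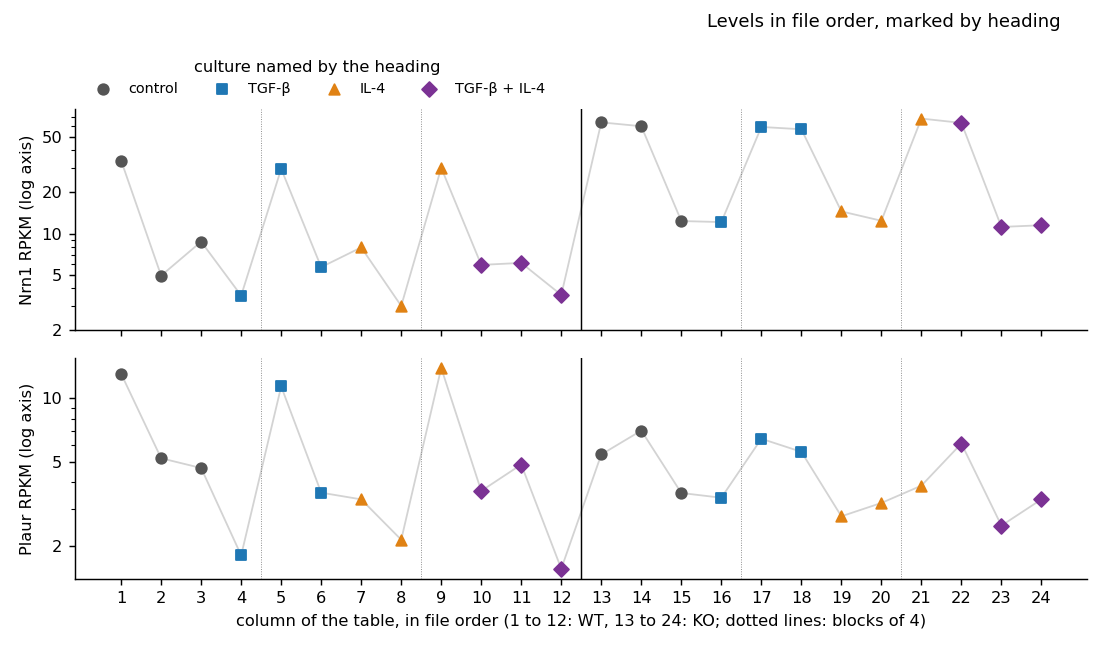
RPKM of *Nrn1* (top) and *Plaur* (bottom) on a log axis in the 24 columns in file order, with the marker showing the culture that the heading names and dotted lines between blocks of 4. The 3 highest WT values of each gene are in columns 1, 5 and 9, which carry 3 different headings.

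In file order, *Nrn1* had an SD over mice of at most 4.44 RPKM in any group. As headed, its mean was 15.8 ± 15.7 RPKM in WT control (SD, n = 3) and 45.3 ± 28.7 RPKM in KO control, and no gene of the table was called in any of the 9 comparisons described here, although between 61 and 3284 genes had an unadjusted limma p under 0.05. File order is used from here on unless stated otherwise, and each limma call given below was lost as headed.

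The genotype labels were checked with *Tgfbr1* and with *Il9*, the cytokine gene of Th9 cells. *Tgfbr1* lay between 3.02 and 20.7 RPKM in the 12 WT columns and between 2.32 and 5.18 RPKM in the 12 KO columns. The ranges overlapped, and reads outside the deleted part of the gene do not test the deletion. By culture, mean *Tgfbr1* was 3.20 (control), 14.1 (TGF-β), 3.71 (IL-4) and 19.2 RPKM (both cytokines) in WT. In KO the means were 2.64, 2.68, 3.28 and 3.99 RPKM, so the WT excess lay mostly in the cultures with TGF-β. *Il9* lay between 8.15 and 45.9 RPKM in WT and between 0.2495 and 2.72 RPKM in KO, without overlap. The WT means of *Il9* were 9.66 RPKM in control, 43.7 with TGF-β, 14.997 with IL-4 and 34.6 with both, and were thus highest with TGF-β alone. Of cell type markers, 9 genes of CD4 T cells summed to 1432 to 1884 RPKM, against 14.3 to 36.3 RPKM for 2 genes of CD8 T cells, 8.14 to 33.8 RPKM for 5 of B cells and 1.49 to 6.90 RPKM for 3 of NK cells. Hemoglobin and other erythroid genes summed to 0.0155 to 22.03 RPKM. The depth of the columns ranged from 0.794 to 1.66 of the depth of mouse 3 of WT TGF-β + IL-4, and read totals are unknown.

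The genes lie on 3 chromosomes of the mm9 build (GENCODE vM1). *Nrn1* (ENSMUSG00000039114.9) lies on chromosome 13 at 36817494 to 36826346 (minus strand), *Plaur* (ENSMUSG00000046223.9) on chromosome 7 at 25247519 to 25260892 (plus strand), and *Plau* (ENSMUSG00000021822.2) on chromosome 14 at 21655884 to 21662610 (plus strand). DNase I hypersensitive sites (DHSs), the regions where DNase I cuts more often than in the background, were called near the start of all 3 genes. The sequences shown lie at the DHS of each gene that was called in both control lists and neither cytokine list (*Nrn1*, *Plaur*), or in both cytokine lists and neither control list (*Plau*). Those of *Nrn1* and *Plaur* are windows of 201 bases around the summit and not the whole sites, which are 335 and 263 bases long. Each is written 5′ to 3′ on the strand of its gene, and capitals mark the 11 bases centred on the summit of the DHS, in WT control for *Nrn1* and *Plaur* and in WT TGF-β + IL-4 for *Plau*. The intervals are chr13:36828133-36828333, chr7:25246488-25246688 and chr14:21655674-21655883, the last being the part of the DHS before the gene start.
Nrn1 upstream DHS: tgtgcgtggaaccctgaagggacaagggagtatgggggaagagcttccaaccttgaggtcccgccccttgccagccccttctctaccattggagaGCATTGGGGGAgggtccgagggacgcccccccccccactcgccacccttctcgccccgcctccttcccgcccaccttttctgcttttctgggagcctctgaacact
Plaur upstream DHS: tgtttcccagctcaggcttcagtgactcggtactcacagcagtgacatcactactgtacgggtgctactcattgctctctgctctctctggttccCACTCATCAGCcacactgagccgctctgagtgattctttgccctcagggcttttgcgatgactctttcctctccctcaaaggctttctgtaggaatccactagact
Plau DHS before the gene start: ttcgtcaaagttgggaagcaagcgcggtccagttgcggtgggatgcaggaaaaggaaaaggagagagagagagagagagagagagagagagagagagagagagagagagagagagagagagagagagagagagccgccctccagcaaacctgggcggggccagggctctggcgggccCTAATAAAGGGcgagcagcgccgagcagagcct
The *Nrn1* window was 63.7% G or C, the *Plaur* window 51.7% and the *Plau* stretch, which holds a long repeat of a and g, 59.0%.

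For *Plaur* the promoter was at hand in RefSeq (GRCm38.p6), and the 250 bases before the start, chr7:24462233-24462482 on the plus strand, are shown with the AP-1 motif TGANTCA in capitals.
Plaur promoter: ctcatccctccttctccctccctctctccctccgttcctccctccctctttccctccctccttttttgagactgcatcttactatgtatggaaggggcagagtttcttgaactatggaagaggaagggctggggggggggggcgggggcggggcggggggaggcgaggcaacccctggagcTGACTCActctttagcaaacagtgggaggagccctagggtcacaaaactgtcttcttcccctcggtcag
The motif begins 69 bases before the start, and 6.75% of the 32851 RefSeq promoter windows of this length held it. The whole promoter entry matched mm9 exactly once, at chr7:25247252-25247551, and no DHS of the 4 lists overlapped that interval. *Nrn1* and *Plau* had no entry. The 4 sequences were searched on both strands for TGANTCA (AP-1), TTC and GAA with 4 bases between them (STAT6 spacing) or with 3 (STAT5 spacing), CAGACA (SMAD), TTANGTAA (DBP) and GGGCGG (GC box). The STAT letters can overlap each other, and no other pair was merged. GGGCGG was found at 2 places in the *Nrn1* window, at 2 in the *Plau* stretch and at 3 in the *Plaur* promoter, and in 22.5% of the 44298 summit windows of 201 bases in WT control and 32.7% of the promoter windows. None of the 6 was found in the *Plaur* upstream window, and none of the STAT, SMAD or DBP letters in any of the 4 sequences. The parts of the *Nrn1* and *Plaur* sites outside their windows were not searched.

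*Nrn1* was an abundant transcript of control cells and was lower in every WT cytokine culture. In WT control cells it stood at 33.8, 29.4 and 29.9 RPKM in mice 1, 2 and 3 (31.03 ± 2.40, SD, n = 3), a mean that 11.7% of all genes exceeded. WT TGF-β + IL-4 cells had 3.55, 2.99 and 3.59 RPKM (3.38 ± 0.336), 9.19-fold below control. These are the values that chose the gene, and the groups did not overlap. TGF-β alone gave 4.95, 5.71 and 5.93 RPKM (5.53 ± 0.511), and IL-4 alone gave 8.73, 7.93 and 6.13 RPKM (7.60 ± 1.33). Each single cytokine stood between control and the combination, the groups whose values chose the gene, at 5.61-fold and 4.08-fold below the control mean.

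In KO cells *Nrn1* was higher than in WT cells in all 4 cultures, and was low only where IL-4 was present. The WT control and WT TGF-β + IL-4 values chose the gene, so the genotype difference in those cultures is only described. KO control cells had 63.9, 59.2 and 68.0 RPKM (63.7 ± 4.44) and KO TGF-β cells 59.9, 56.9 and 63.3 RPKM (60.02 ± 3.20). These ranges overlap and are the highest of the 8 groups. KO IL-4 cells had 12.3, 14.5 and 11.2 RPKM (12.6 ± 1.68), and KO TGF-β + IL-4 cells 12.1, 12.4 and 11.5 RPKM (11.99 ± 0.455). These also overlap each other. From highest to lowest the order was KO control and KO TGF-β, WT control, KO IL-4 and KO TGF-β + IL-4, WT IL-4, then WT TGF-β, then WT with both cytokines, and the joined pairs were the only neighbours whose ranges overlapped.

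**Figure D2:**
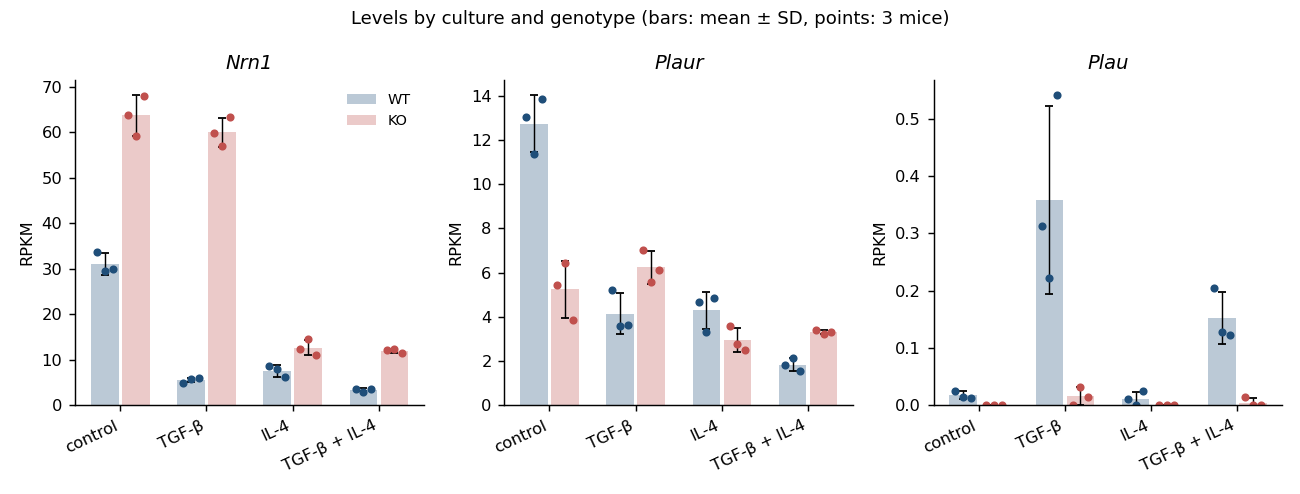
RPKM of *Nrn1*, *Plaur* and *Plau* (y axes from 0, with different scales) in the 4 cultures of WT (blue) and KO (red) cells, with bars for the mean, whiskers for the SD and points for 3 mice. *Nrn1* in KO cells is near 60 RPKM without IL-4 and near 12 RPKM with it, whereas in WT cells each cytokine culture is under 9 RPKM.

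The response of *Nrn1* to the cytokines in WT and KO cells was tested in comparisons that the choice of the gene did not use. Calls needed a change of more than 1.5-fold and a limma p under 0.01 after Benjamini-Hochberg adjustment over all tested genes, and all log2 changes below are on the log2(RPKM + 1) scale. In KO cells TGF-β gave *Nrn1* a log2 change of −0.08 (SE 0.067, 95% interval −0.24 to 0.07, limma adjusted p = 1.00), lower in 3 of 3 mice but not called, and 0.0105% of genes were called in this comparison. With the replicate number as a block its unadjusted limma p was 0.0643 and its adjusted p 0.797. With IL-4 it fell in KO cells, with a log2 change of −2.25 (SE 0.094, limma adjusted p = 2.24e-06; 2.51% of genes called), lower in 3 of 3 mice. With TGF-β + IL-4 it fell in KO cells, with a log2 change of −2.31 (SE 0.075, limma adjusted p = 7.46e-06; 1.92% of genes called), also in 3 of 3 mice. Under TGF-β, KO cells had more *Nrn1* than WT cells by 3.23 (SE 0.074, limma adjusted p = 3.38e-08), a 10.9-fold ratio of means, in a comparison with 9.68% of genes called. Under IL-4 the difference of KO to WT was 0.67 (SE 0.126, limma adjusted p = 0.00881; 2.99% of genes called), and this call was lost when any 1 replicate number was left out, with limma adjusted p between 0.0218 and 0.0512. In WT cells TGF-β and IL-4 differed by −0.39 (SE 0.119, limma adjusted p = 0.0449), which was not called, where 7.01% of genes were. The TGF-β and IL-4 cultures of KO cells differed by 2.17 (SE 0.088, limma adjusted p = 1.49e-06; 2.33% of genes called), and the change from IL-4 to TGF-β was larger in KO than in WT cells by 2.55 (SE 0.161, limma adjusted p = 2.91e-07; 5.25% of genes called). These last 2 comparisons were added after the values were seen. KO TGF-β cells served in several of these comparisons, so that they are not independent of each other.

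**Figure D3:**
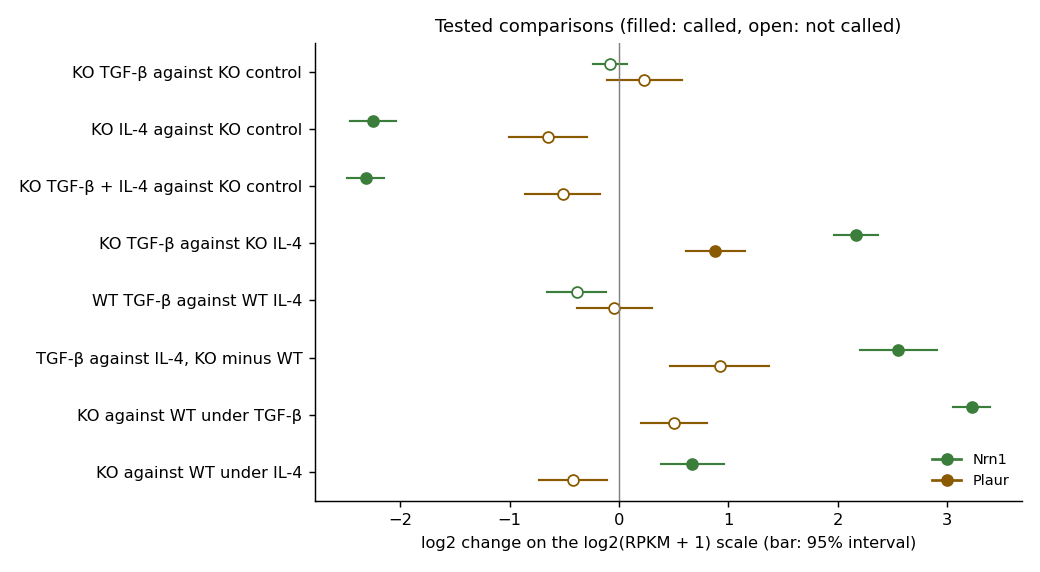
Log2 change of *Nrn1* (green) and *Plaur* (brown) on the log2(RPKM + 1) scale in 8 tested comparisons, with 95% intervals from limma and filled points for called changes. The *Nrn1* interval includes 0 only for TGF-β in KO cells, and *Plaur* is called in 1 comparison, KO TGF-β against KO IL-4.

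*Plaur* was lower than *Nrn1* on the RPKM scale and was highest in WT control cells. WT control cells had 13.03, 11.3 and 13.9 RPKM (12.7 ± 1.28, SD, n = 3), a mean that 19.3% of all genes exceeded, and WT TGF-β + IL-4 cells had 1.81, 2.15 and 1.57 RPKM (1.84 ± 0.291), 6.91-fold lower. These values chose the gene. TGF-β alone gave 5.20, 3.58 and 3.65 RPKM (4.14 ± 0.918) and IL-4 alone 4.68, 3.33 and 4.86 RPKM (4.29 ± 0.8365) in WT cells. The single cytokines overlapped each other and stood apart from both control and the combination, the groups whose values chose the gene.

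*Plaur* in KO cells lay between 2.50 and 7.03 RPKM over the 4 cultures. WT cells spanned 1.57 to 13.9 RPKM, but both ends of that range come from the groups that chose the gene. With a single cytokine, the range was 3.33 to 5.20 RPKM in WT cells and 2.50 to 7.03 RPKM in KO cells. KO control cells had 5.42, 6.43 and 3.86 RPKM (5.24 ± 1.29), all below WT control, and KO TGF-β cells had 7.03, 5.58 and 6.11 RPKM (6.24 ± 0.733). With IL-4, KO cells had 3.57, 2.77 and 2.50 RPKM (2.95 ± 0.554), and with TGF-β + IL-4 3.39, 3.20 and 3.33 RPKM (3.31 ± 0.0954). The KO groups with IL-4 lay below those without it, and within each pair the ranges overlapped. KO control stood 2.43-fold below WT control for *Plaur*, whereas *Nrn1* stood 2.05-fold above it, and both are given without a test because WT control was used to choose the genes.

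The tests of *Plaur* passed the thresholds in 1 comparison. TGF-β gave 0.23 in KO cells (SE 0.150, 95% interval −0.11 to 0.57, limma adjusted p = 1.00). IL-4 gave −0.65 in KO cells (SE 0.159, limma adjusted p = 0.0408) and TGF-β + IL-4 gave −0.51 (SE 0.150, limma adjusted p = 0.128), neither of them called. The level in KO TGF-β cells exceeded that in KO IL-4 cells by 0.88 (SE 0.119, limma adjusted p = 0.00203), in 3 of 3 mice, a call that was lost without mouse 3 (limma adjusted p = 0.0496) and with no filter on low values (0.0177). In WT cells the same difference was −0.04 (95% interval −0.39 to 0.30, limma adjusted p = 0.874). The KO change exceeded the WT change by 0.92 (SE 0.210), with a limma adjusted p of 0.01002 that fell just short of the threshold. With the replicate number as a block it was called (limma adjusted p = 0.00221), and without mouse 3 it was 0.70 (limma adjusted p = 0.191). KO and WT cells differed by 0.50 under TGF-β (SE 0.131, limma adjusted p = 0.0160) and by −0.42 under IL-4 (SE 0.139, limma adjusted p = 0.0844), and neither was called.

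*Plaur* is also made by myeloid cells, whose listed markers summed to 4.53 to 42.3 RPKM over the 24 columns, 7 of the 9 being in the table and 2 of these averaging at least 1 RPKM and none at 0 in all columns. *Fcer1g* averaged 12.8 RPKM and *Lyz2* 4.92 RPKM, and the other markers averaged at most 0.988 RPKM (*Mpo*), with *Csf1r* at 0.1 and *Cd14* at 0.0928 RPKM. On average *Fcer1g* was thus the largest part of the sum. The sum lay between 16.6 and 23.2 RPKM in WT control and 27.3 and 42.3 RPKM in WT cells with both cytokines, and between 4.53 and 9.48 RPKM in KO control and 12.3 and 25.2 RPKM in KO TGF-β + IL-4 cells. Between the cultures of 1 genotype the sum was higher with both cytokines than in control, where *Plaur* was higher. Between the genotypes in control medium both the sum (medians of 20.8 RPKM in WT and 8.67 RPKM in KO) and *Plaur* were higher in WT, and the part of these cells in the levels of *Plaur* was not tested. In these bulk samples fewer cells that express a gene and less RNA per cell cannot be told apart.

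*Plau* was at the edge of detection, and most of its reads came from WT cells cultured with TGF-β. Its deposited values were whole multiples of the value of 1 read in all 24 columns (within 0.1 read), so the reads could be given. WT TGF-β cells had 21, 14 and 44 reads (0.313, 0.221 and 0.540 RPKM), and WT TGF-β + IL-4 cells 11, 6 and 7 reads (0.205, 0.128 and 0.123 RPKM). WT control cells had 2, 1 and 1 reads and WT IL-4 cells 1, 0 and 2 reads. The cultures with TGF-β lay above the others without overlap, and TGF-β alone above the combination.

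In KO cells *Plau* gave 4 reads in 12 columns, against 110 reads in the 12 WT columns, which does not depend on how the cultures are read. KO TGF-β cells had 0, 2 and 1 reads, KO TGF-β + IL-4 cells 1, 0 and 0 reads, and KO control and KO IL-4 cells none, which allows up to 0.0145 and 0.0177 RPKM (3 reads over the group). Over the reads of each group, WT TGF-β exceeded KO TGF-β cells 22.01-fold (95% exact interval 7.26 to 109, for counting error only). It exceeded WT IL-4 cells 28.6-fold (9.45 to 142) and WT control cells 21.5-fold (8.08 to 80.9). Mouse 3 gave 44 of the 79 WT TGF-β reads. In a check added after the values were seen, these ratios without mouse 3 of each group were 14.98 (3.85 to 129), 39.7 (6.67 to 1612) and 13.4 (4.22 to 68.1), and without mouse 2 the ratio to KO TGF-β cells was 49.9 (8.65 to 2003). The gene lay under the minimum mean of 1 RPKM for limma. By the exact two-sided permutation test over mice, WT TGF-β differed from WT IL-4 and from KO TGF-β cells at p = 0.1 in both cases (0.2 after Benjamini-Hochberg adjustment over 4 comparisons), the smallest p that 3 against 3 allows. By the same exact test, KO against WT under IL-4 and KO TGF-β against KO control had p = 0.4. In WT control cells 59.3% of genes had a higher mean than *Plau*.

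Pearson's r of log2(RPKM + 1) between *Nrn1* and *Plaur* was 0.95 over the 12 WT columns, 0.86 over the 12 KO columns and 0.64 over all 24, as a description of columns that share cultures and mice. Of the 12 WT columns, 6 are those that chose both genes, so that the r over WT and over all columns uses the values of the choice. The r of *Plaur* with *Plau* was −0.40 in WT and 0.30 in KO columns. Of 9726 genes with a mean of at least 1 RPKM, those most like *Nrn1* over the 24 columns were *Id3*, an inhibitor of E-protein transcription factors (r = 0.96), *Cpm*, a GPI-anchored carboxypeptidase, *Cdyl2*, *Tmem126a* and *Tspan3* (r of at least 0.94). The most opposite were *Ccr4*, a chemokine receptor of Th2 cells (r = −0.98), *Tes* and *Npas2*, a circadian transcription factor (both −0.97). For *Plaur* the nearest were *Dennd5a*, *Agpat4*, the chemokine genes *Ccl4* and *Ccl3*, and *Pvr* (r between 0.84 and 0.88), and the most opposite *Ephb6*, *Hadh* and *Cat*, the catalase gene (r between −0.88 and −0.86). For *Plau* they were *Plod2*, *Fam129b*, *Sphk1*, *Emp1* and *Pdlim5* (r between 0.91 and 0.93), and *Stat4* and *Kdm2b* (both −0.91). Over the 12 KO columns, with 4 reads of *Plau* in all, the r of these genes were weaker. They were 0.39 for *Plod2*, 0.50 for *Fam129b*, 0.59 for *Sphk1*, 0.43 for *Emp1*, 0.052 for *Pdlim5* and −0.67 for *Kdm2b*. *Stat4* changed sign, at 0.15.

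The rest of the plasminogen system did not follow *Plaur* as a group in WT TGF-β + IL-4 against WT control cells, a comparison in which 9.27% of all genes were called, 6.43% higher and 2.84% lower. Of 28 listed genes besides the members, 11 could be tested, 1 rose and 2 fell, and their median log2 change was −0.18 beside 0.03 over all genes. *Serpine2*, an inhibitor of urokinase and thrombin, fell from a mean of 9.15 to 2.88 RPKM (log2 change −1.39). It stood at 10.7 in KO control and 8.39 RPKM in KO TGF-β + IL-4 cells. *Itga3*, an integrin chain that pairs with uPAR, fell from 1.82 to 0.732 RPKM (−0.70), and *Itgb2*, the β chain of leukocyte integrins, rose from 119 to 219 RPKM (0.88). *Itga3* passed the minimum mean for limma only through the control cells, so its call is not independent of the filter. In KO TGF-β + IL-4 against KO control cells 1 of 11 was called (1.92% of all genes), *S100a10*, part of a plasminogen receptor, with a log2 change of −0.62.

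Of the Ly6/uPAR family, whose members share the fold of uPAR, and the neuritin family, 8 of 32 listed genes could be tested. *Lypd6b*, an Ly6-type modulator of nicotinic receptors, was the only one called, where 9.27% of all genes were called in WT and 1.92% in KO cells. It fell from 1.77 to 0.369 RPKM in WT cells (log2 change −1.02) and from 4.23 to 2.12 RPKM in KO cells (−0.75). In WT cells *Lypd6b* passed the minimum mean for limma only through the control cells, so its call there is not independent of the filter. The median of the family was −0.33 in WT and 0.03 in KO cells. Against WT cells, 6 of 8 were called lower and none higher in KO cells under IL-4 (2.99% of all genes called), and 6 of 8 were called lower and 1 higher under TGF-β (9.68%). The Ly6 genes are close copies of each other, so reads could have been split among them.

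**Figure D4:**
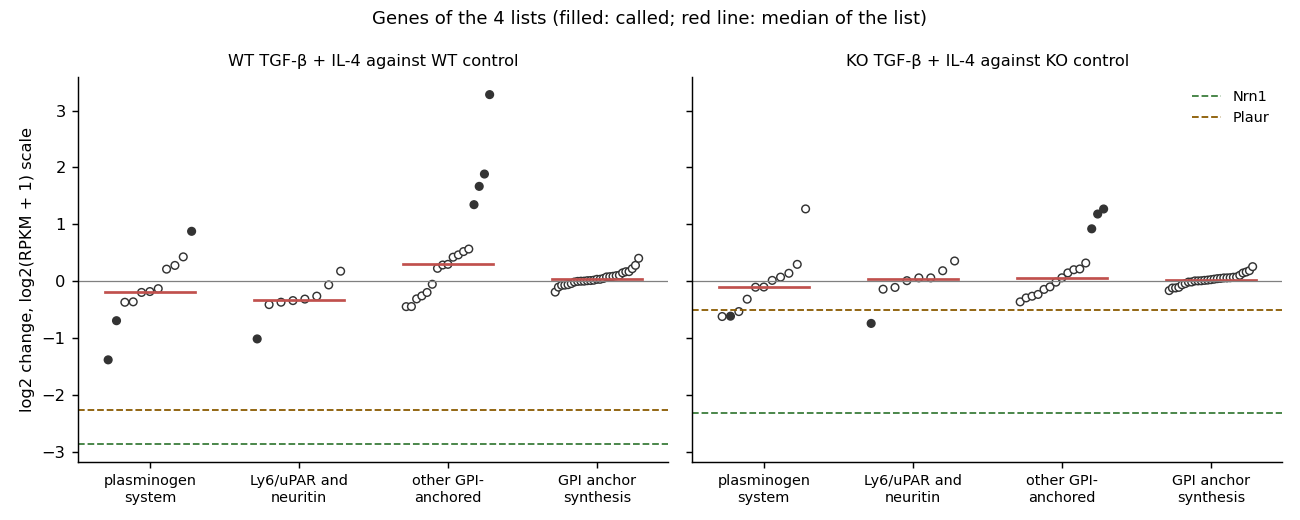
Log2 change on the log2(RPKM + 1) scale of the tested genes of 4 lists in TGF-β + IL-4 against control cells of WT (left) and KO (right), with filled points for called genes, red lines for list medians, and dashed lines for *Nrn1* and *Plaur*. Both dashed lines lie below every listed gene in WT cells, and in KO cells that of *Nrn1* does. The WT comparison is the one that chose both genes, so their low place in that panel follows from the choice.

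Among other GPI-anchored proteins of lymphocytes, the genes called in WT cells were higher with both cytokines than in control. Of 32 listed genes 17 were tested, 4 rose and none fell, with a median of 0.29 beside 0.03 over all genes. In this comparison 6.43% of all genes were called higher and 2.84% lower. The list also held *Tnfrsf10b* and *Mfge8*, whose products are not GPI-anchored, and neither was called. *Folr4* and *Izumo1r* were both listed, although they are names of the same gene. *Nt5e*, which encodes the ecto-enzyme CD73, rose from 1.14 to 19.8 RPKM (log2 change 3.28), and had 0.512 RPKM in KO control and 1.35 RPKM in KO TGF-β + IL-4 cells. *Prnp*, the prion protein gene, rose from 5.74 to 23.9 RPKM (1.88), *Efna3*, an ephrin gene, from 0.0580 to 2.41 RPKM (1.67) and *Art2b*, an ADP-ribosyltransferase gene, from 1.89 to 6.29 RPKM (1.34). *Efna3* passed the minimum mean for limma only through the cells with both cytokines. A fall from its control level could not have been tested. In KO cells 3 of 15 were called (1.92% of all genes), all higher, *Prnp*, *Art2b* and *Art2a-ps*. *Art2a-ps* (0.544 RPKM in KO control and 1.92 RPKM in KO TGF-β + IL-4 cells) likewise passed the minimum mean only through the cells with both cytokines. Of the genes that build and attach the GPI anchor, 27 of 30 were tested and none was called by limma in WT or KO cells, with medians of 0.03 and 0.02. Of all genes, 9.27% were called in WT and 1.92% in KO cells.

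At the chromatin level, DHSs lay within 20000 bp of the gene bodies at 3 sites for *Nrn1*, 9 for *Plaur* and 6 for *Plau*. A site joins DHSs of the 4 lists that overlap by at least 1 bp. The lists differ in length, with 44298 and 33880 DHSs for the control and TGF-β + IL-4 cells of WT and 33665 and 27145 for those of KO. They come from 1 library each at unknown depth, so a site absent from a list is one that was not called there. The rank of a DHS by fold enrichment within its list is given as a percent, with the strongest near 0%.

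*Nrn1* had no DHS in common between WT control and WT TGF-β + IL-4 cells. The site shown above, which begins 1746 bp upstream of the gene start, from 36828092 to 36828426, is intergenic and was called in WT control (rank 80.0%) and KO control (90.7%) but in neither cytokine list. Of all WT control DHSs, 6.48% had this pattern. A second intergenic site 776 bp upstream, from 36827122 to 36827321, was called in WT control only (98.9%), and a site in an intron, from 36823499 to 36823788, in WT TGF-β + IL-4 only (78.5%). In all, 2 of 2 WT control DHSs at the gene had no counterpart in WT TGF-β + IL-4, beside 31.9% of all WT control DHSs. Both ranked low by fold enrichment (80.0% and 98.9%), whereas the 31.9% covers DHSs of every rank.

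At *Plaur*, the upstream site shown above, from 25246494 to 25246756 and 763 bp before the gene start, was again called in both control lists (ranks 97.7% in WT and 92.1% in KO) and in neither cytokine list. Its −log10 q was 4.75 in WT control and 6.56 in KO control, so that at a minimum of 5 it was called in KO control only. Of the other 8 sites, 4 were called in all 4 lists, the strongest of them 4178 bp upstream (from 25242647 to 25243341, rank 11.5% in WT control). The sites in an intron (25252934 to 25253296) and over an exon (25258926 to 25259297) of the gene were called in every list but KO TGF-β + IL-4. The remaining 2 were called in WT control only, 1 of them within an intron of the neighbour *Cadm4*. In all, 3 of 9 WT control DHSs had no counterpart in WT TGF-β + IL-4 cells, beside the 31.9% of all WT control DHSs.

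*Plau* had a DHS across its start, from 21655674 to 21656054, in WT TGF-β + IL-4 (rank 66.8%) and KO TGF-β + IL-4 cells (94.0%) and in neither control list, a pattern of 0.744% of all WT TGF-β + IL-4 DHSs. Its −log10 q was 7.27 in the WT list and 3.19 in the KO list, so that at a minimum of 5 it was called in WT cells only. An intergenic site 275 bp upstream (21655397 to 21655609) was called in WT control only (73.8%). KO control cells had no DHS in the window, and the other 4 sites were intergenic and called in 1 or 2 lists.

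**Figure D5:**
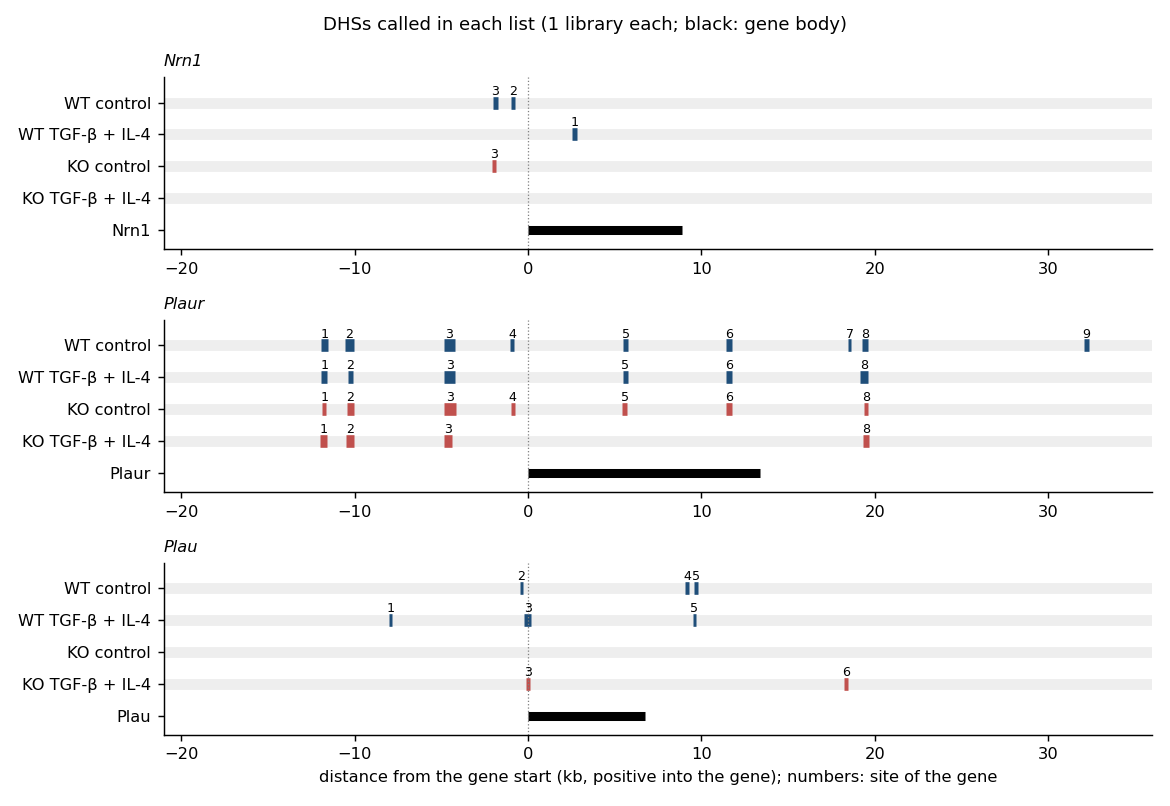
DHSs called in 4 lists (rows) around each gene, by distance from the gene start in kb, with site numbers above the marks and the gene body in black. Sites 3 and 4 upstream of *Nrn1* and *Plaur* appear in the control rows only, and site 3 at the start of *Plau* in the TGF-β + IL-4 rows only.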

How the data were processed

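RNA-seq libraries were made by Smart-seq2. Per the labels and the study's methods, the authors aligned reads to mm9 (Bowtie2), dropped poorly mapped and duplicate reads, and deposited RPKM, which are scaled to gene length and library size, of 24089 genes. For DNase-seq the deposited narrow peaks were called by MACS2 on each library alone, and the authors' lists give the ratio (fold enrichment over background) and the −log10 of p and q of each DHS. Tool versions are not given in the sources used here. The members, lists and tests were chosen with earlier results of these data known.

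Columns were read in file order. limma 3.58.1 (R 4.3.3, trend) was fitted to log2(RPKM + 1) of every gene that averaged 1 RPKM or more in the compared groups, 3 libraries each. In data simulated for KO IL-4 against KO control, 200 of 9600 fitted genes were changed, with normal noise at each gene's own SD. There limma called 94% of genes changed by 2 and 86% of those changed by 1 on the log2 scale, and 2 unchanged genes. *Plau* was tested by exact permutation (scipy 1.17.1). Python 3.11.15, numpy 2.4.6, pandas 2.3.3 and matplotlib 3.10.9 served for the rest. Named genes were the members, the 5 most and 3 least correlated genes of each (1 of which is not reported here), called genes of 4 lists (at most 4 in each direction), *Tgfbr1* and *Il9*, and *S100a10*, *Art2a-ps* and *Cadm4*, which were named after their values were seen. Gene lists and cell type markers were written by hand. Replicate numbers pair libraries because they name the mouse within a genotype. Deviations of same-numbered libraries from group means correlated between −0.09 and 0.55 in WT and between −0.30 and 0.42 in KO columns. The alternatives were the reading of columns as headed, a pseudocount of 0.1, no filter, scaling by median ratios, all 24 libraries in one fit, the replicate block, each replicate left out, and for DHSs 50% overlap, −log10 q of at least 5 and a window of 5000 bp. The peak score was not used.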

Additional observations from a re-analysis of the deposited data

Results flagged for a closer look

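*Nrn1* responded differently to the cytokines in the 2 genotypes. The difference between TGF-β and IL-4 cultures was larger in KO than in WT cells by 2.55 on the log2(RPKM + 1) scale (limma, SE 0.161, adjusted p = 2.91e-07). This difference itself was tested, by an interaction term chosen after the values were seen. In 3 of 3 KO mice *Nrn1* was higher with TGF-β than with IL-4, and in 3 of 3 WT mice it was lower. The WT difference was not called (limma adjusted p = 0.0449), and WT mouse 3 had 5.93 RPKM with TGF-β and 6.13 RPKM with IL-4. The genotype difference was not called when the columns were read as headed (0.64). The same interaction term for *Plaur* was 0.92 with a limma adjusted p of 0.01002, just outside the threshold. It was called with the replicate number as a block (limma adjusted p = 0.00221), and was 0.70 without replicate 3 (limma adjusted p = 0.191).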

How the results depend on the processing

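With the columns read as headed, 0 genes were called by limma in all 9 comparisons and in the 3 lists that had called genes. *Nrn1* kept its direction without a call, at −0.81 (TGF-β + IL-4 in KO cells), −0.63 (IL-4 in KO cells), 1.87 and 1.23 (KO against WT under TGF-β and under IL-4), 0.56 (KO TGF-β against KO IL-4) and 0.64 (the genotype difference of that change). *Plaur* was at 0.49 for KO TGF-β against KO IL-4, no longer called, and turned to −0.045 for TGF-β in KO cells, where it was not called in file order either. Mean *Nrn1* became 15.8, 12.9, 13.6 and 5.21 RPKM in WT (control, TGF-β, IL-4, both cytokines) and 45.3, 42.7, 31.6 and 28.6 RPKM in KO. Mean *Plaur* became 7.64, 5.58, 6.45 and 3.36 RPKM in WT, and 5.13 and 3.98 RPKM in KO TGF-β and KO TGF-β + IL-4. Mean *Plau* became 0.116, 0.147, 0.0468 and 0.229 RPKM in WT. The cause of the conflict was not tested.

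With no filter on low values, where more genes are tested, *Nrn1* under IL-4 (0.67) and *Plaur* in KO TGF-β against KO IL-4 (0.88) lost their calls, and 99 genes were called for TGF-β + IL-4 in KO cells against 185 in the main analysis, 154 for IL-4 in KO cells against 241, 149 for KO against WT under IL-4 against 289, and 0 for TGF-β in KO cells against 1. That last count was also 0 with median ratios, 6 with all 24 libraries in one fit and 2 with the replicate block. The same single fit called *Plaur* for IL-4 in KO cells (−0.65) and 278 genes for TGF-β + IL-4 in KO cells. The genotype difference of *Plaur* (0.92) was called with all libraries in one fit and with the replicate block, and at 0.95 with median ratios. The replicate block left 88 genes called for TGF-β + IL-4 in KO cells and changed no other call of *Nrn1* or *Plaur* nor any other count by over 1.5 times.

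With 1 replicate number left out, *Nrn1* under IL-4 lay between 0.61 and 0.78, *Plaur* in KO TGF-β against KO IL-4 between 0.81 and 0.92, and *Plaur* in WT TGF-β against WT IL-4, not called, between −0.13 and 0.10, the last without replicate 3. Genes called lay between 32 and 175 for TGF-β + IL-4 in KO cells, 0 and 0 for TGF-β, 121 and 176 for IL-4, 109 and 257 for KO against WT under IL-4, 91 and 207 for KO TGF-β against KO IL-4, and 288 and 383 for the genotype difference. The lowest counts came without replicate 1 for TGF-β + IL-4 (32) and IL-4 (121) in KO cells and otherwise without replicate 3.

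For DHSs, −log10 q of at least 5 left 1 DHS of WT control without counterpart at each of *Nrn1* and *Plaur*, and a window of 5000 bp left 4 sites and 1 such DHS at *Plaur* and 1 WT TGF-β + IL-4 DHS without counterpart at *Plau*. With a pseudocount of 0.1, *Nrn1* and *Plaur* kept direction and side of the thresholds in the tested comparisons and counts stayed within 1.5 times, the other GPI-anchored proteins going from 4 to 5 called. With 50% overlap, *Plau* went from 6 to 7 sites and from 2 to 3 DHSs without counterpart in each direction, and *Nrn1* and *Plaur* kept their counts. Unknown read totals limit the precision of RPKM, and 1 library per DNase-seq condition gives no error.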
